A study of Mus musculus with 2 samples.

Results

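The Mir26 family of the mouse comprises 3 microRNA genes, Mir26a-1, Mir26a-2 and Mir26b, which lie in introns of 3 genes for related phosphatases, Ctdspl, Ctdsp2 and Ctdsp1. They were taken from the count tables of 2 heart libraries by their Ensembl identifiers, ENSMUSG00000065513.1, ENSMUSG00000065430.1 and ENSMUSG00000065468.1, and are 3 of 2202 microRNA genes counted. MicroRNA sequencing was done on total RNA, with a labelled size range below 30 whose unit is not stated. The hearts came from adult female mice with the strain label 5xFAD/CAST, aged 8 to 10 months, and the libraries are biological replicates 2 and 1 of a single group. There was no control group. 5xFAD is a transgenic model of Alzheimer disease whose transgenes are driven by the neuronal Thy1 promoter, and CAST is an inbred strain of a wild mouse subspecies. Both libraries carry the same donor record and different biosample records, so the spread between them can be technical and p-values measure only the difference between these libraries.

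MicroRNAs are cut from a hairpin precursor, whose 5′ side gives the 5p arm and whose 3′ side the 3p arm. A mature arm guides an Argonaute protein to messenger RNAs, mainly through its seed, bases 2 to 8. The Ctdsp genes encode phosphatases that act on the carboxy-terminal domain of RNA polymerase II and help to keep neuronal genes silent in other tissues. In the heart, miR-26 is known for Kcnj2, an inward rectifier potassium channel, among its targets, and in endothelial cells for Smad1, a mediator of BMP signalling.

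The 3 precursors are shown because their sequence sets which reads could be counted for which gene. They were taken from RefSeq on build GRCm38.p6 and all 3 members matched. The mature arms are in capitals, the 5p arm first.
Mir26a-1: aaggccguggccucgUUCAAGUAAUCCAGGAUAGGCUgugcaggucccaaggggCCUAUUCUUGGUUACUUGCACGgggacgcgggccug
Mir26a-2: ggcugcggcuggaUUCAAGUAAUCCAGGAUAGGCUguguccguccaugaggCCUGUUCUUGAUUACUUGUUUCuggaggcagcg
Mir26b: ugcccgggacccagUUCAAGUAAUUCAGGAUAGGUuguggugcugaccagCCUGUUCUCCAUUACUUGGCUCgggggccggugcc

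The precursors give 5 distinct mature arms, which carry 3 distinct seeds. The seed is in capitals.
miR-26a-5p: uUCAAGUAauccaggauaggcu
miR-26b-5p: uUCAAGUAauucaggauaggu
miR-26a-1-3p: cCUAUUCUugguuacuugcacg
miR-26a-2-3p: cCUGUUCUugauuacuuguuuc
miR-26b-3p: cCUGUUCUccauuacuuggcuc

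Both 5p arms have the same seed, UCAAGUA, and no other of the 968 genes matched to RefSeq carries it. Mir26a-1 and Mir26a-2 encode the same 5p arm of 22 bases. Counted from the 5′ end, miR-26b-5p, of 21 bases, differs from it by C11U and C21U, with the base of miR-26a-5p first, so that 19 of the 21 compared bases are the same. The 3p arms diverge more. Against miR-26a-1-3p, miR-26a-2-3p has 6 differences over 22 bases (A4G, G11A, C19U, A20U, C21U and G22C), of which A4G lies in the seed. Against miR-26a-2-3p, miR-26b-3p has 4 (U9C, G10C, U19G and U20C), none in the seed, and these arms share the seed CUGUUCU. That seed is also found in Mir6932 and Mir7039, which had 0 counts in both libraries.

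The longest run shared by the precursors of Mir26a-1 and Mir26a-2 was 25 bases and held the whole 5p arm with the 3 bases after it.
Shared run: uucaaguaauccaggauaggcugug
Mir26b shares at most 11 bases in a row with Mir26a-1 and 10 with Mir26a-2. Every window of 22 bases of each precursor was looked up in the other counted precursors on both strands. In Mir26a-1, 65 of 69 windows occurred in no other precursor, in Mir26a-2 59 of 63 and in Mir26b 64 of 64. The 4 windows that Mir26a-1 and Mir26a-2 share start at bases 16 to 19 and 14 to 17 of the precursors, and the 5p arm is one of them. The 3p arms of all 3 genes occurred once. No window occurred in the 139565 other annotated transcripts searched, those of genes overlapping the same locus left out. The genome itself was not searched.

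**Figure D1:**
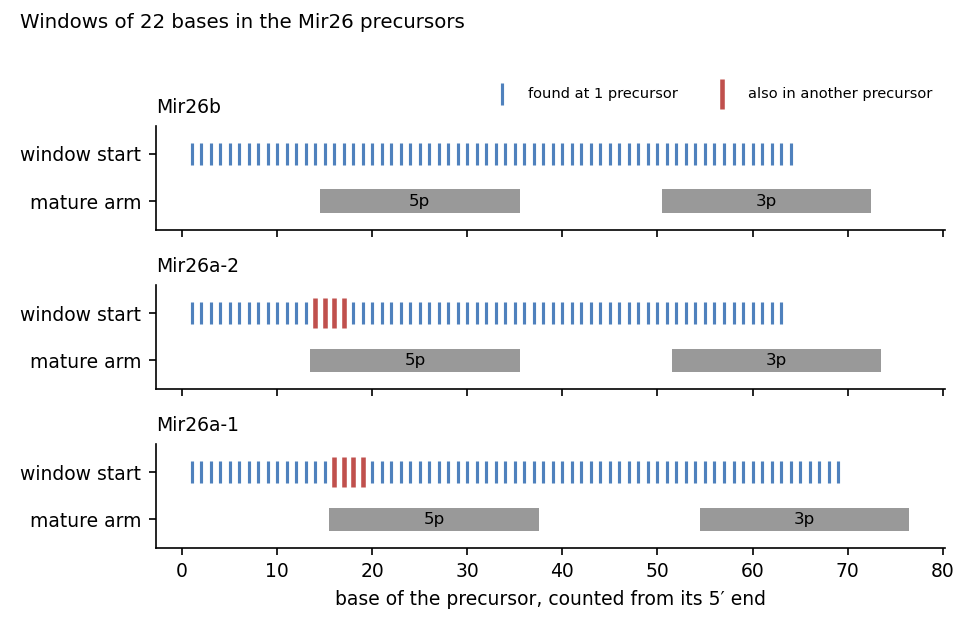
Windows of 22 bases along the precursors of Mir26b, Mir26a-2 and Mir26a-1, with the base at which each window starts on the x axis and the mature arms as grey bars. Thick red ticks mark the 4 windows that Mir26a-2 and Mir26a-1 share, at the 5p arm; Mir26b has none.

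Reads that fitted several loci were kept in a row of their own in the deposited tables and were assigned to no gene. An exact read of miR-26a-5p fits both Mir26a loci, so the counts of Mir26a-1 and Mir26a-2 can hold only reads from outside the shared run, such as 3p arms or fragments that reach past its ends. Their counts are lower limits and are not the level of miR-26a-5p. Reads at several loci numbered 3857067 in replicate 2, or 43.2% of its reads, and 5614018 in replicate 1, or 42.4%. How many of these were miR-26a-5p was not measured. The number of mismatches allowed in alignment is not given in the sources used here. Arms of a precursor were not counted apart.

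All 3 genes lie on the plus strand of build mm10, each in an intron of its host. Mir26b lies at chr1:74394310-74394394, in intron 4 of Ctdsp1, whose principal transcript has 7 exons. That intron is 564 bases long, and the precursor stands 234 bases after exon 4 and 245 before exon 5. Mir26a-2 lies at chr10:126995530-126995613, in intron 5 of the 8-exon principal transcript of Ctdsp2. This intron has 1946 bases, and the precursor stands 1621 bases into it and 241 before the next exon. In 2 of the 4 annotated Ctdsp2 transcripts an exon starts at the last base of the precursor, an overlap of 1 base. Mir26a-1 lies at chr9:119031796-119031885, in intron 5 of the 8-exon principal transcript of Ctdspl, 1543 bases after exon 5 and 1650 before exon 6 in an intron of 3283 bases.

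The host genes span 5777 bases for Ctdsp1, 21259 for Ctdsp2 and 117546 for Ctdspl. The nearest annotated microRNA gene on the same strand lies 1032366 bases from Mir26a-1 and 2115166 from Mir26b. For Mir26a-2 it is Mir546, 2827 bases away, which had 2 counts in replicate 2 and 0 in replicate 1. The precursors are of nearly equal length, with 85 bases for Mir26b, 84 for Mir26a-2 and 90 for Mir26a-1. Their GC content was 58.8%, 53.6% and 60%, and their computed folding energies were -43.5, -44.5 and -49.4 kcal/mol.

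**Figure D2:**
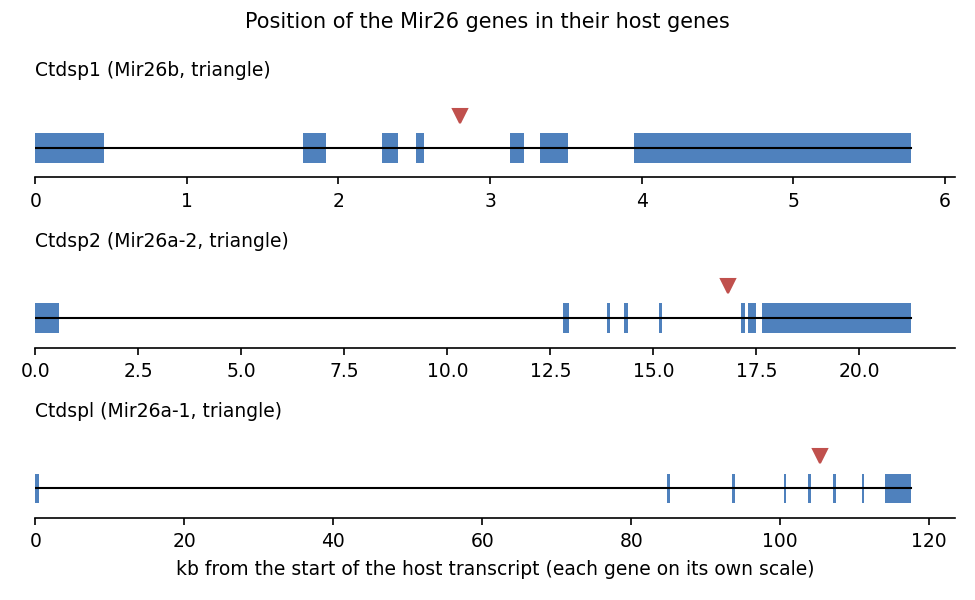
Exons (blue) of the principal transcript of Ctdsp1, Ctdsp2 and Ctdspl by distance from the transcript start in kb, each gene on its own scale, with the start of the Mir26 precursor as a triangle; very short exons are drawn slightly wider than they are. Mir26b sits in intron 4, and Mir26a-2 and Mir26a-1 in intron 5.

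The tables assigned 2877511 reads to microRNA genes in replicate 2 and 4186560 in replicate 1, so a count of 3, the limit that a count of 0 allows, stood at 1.04 and 0.717 counts per 1000000 assigned counts (CPM). The highest genes of the cardiomyocyte marker list were Mir499 and Mir208a. Mir208a, from the Myh6 intron, had 1074 CPM in replicate 2 and 1638 in replicate 1, and Mir499, from Myh7b, 3618 and 4787 CPM. Of the others, Mir1a-2 had 67.4 and 72.6 CPM and Mir208b 22.2 and 41.8 CPM, in the same order. Mir1a-1, Mir133a-2 and Mir133a-1 had 9, 7 and 3 counts in replicate 2 and 9, 8 and 6 in replicate 1. Reads that fitted several loci are not among these, so the counts are not the levels of the mature arms. All 7 genes of the cardiomyocyte list thus had counts in both libraries. So had all 10 genes of the epithelial list, and a count alone does not bear on the heart label. The libraries were not copies of each other, and the median of the 309 genes tested differed 1.43-fold between them. The common biological coefficient of variation was 0.414 by edgeR and 0.209 by DESeq2's median gene-wise dispersion.

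Mir26b, the member whose 5p and 3p arms are both its own, held nearly all of the family's counts. It had 90484 counts in replicate 2 and 118729 in replicate 1. Its level was 31445 CPM in replicate 2, with an exact 95% interval (Clopper-Pearson) of 31244 to 31648, against 28360 CPM in replicate 1, with 28201 to 28519. The mean was 29902 ± 2182 CPM (SD, n = 2). Intervals, here and below, reflect counting error alone, with each read taken as independent. The tables give reads and not molecules, so the intervals may be too narrow even for that. By level Mir26b ranked 11 of 2202 in replicate 2 and 13 in replicate 1, and 12 by the mean. It supplied 99.4% of the family's counts in replicate 2 and 99.7% in replicate 1.

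Mir26a-2 and Mir26a-1 had few counts, and they were alike in one library and far apart in the other. Mir26a-2 had 241 counts in replicate 2 and 339 in replicate 1. Its level was 83.8 CPM in replicate 2 (73.5 to 95.02) and 80.97 CPM in replicate 1 (72.6 to 90.1), with a mean of 82.4 ± 1.97 CPM (SD, n = 2). The intervals of both libraries overlap, and the gene ranked 140 and 143. Mir26a-1 had 262 counts in replicate 2 and 20 in replicate 1. Its level was 91.1 CPM in replicate 2 (80.4 to 103) and 4.78 CPM in replicate 1 (2.92 to 7.38), with ranks 136 and 295. Its mean, 47.9 ± 61.0 CPM (SD, n = 2), describes neither library, and the spread exceeds it. Without replicate 1 the level is 91.1 CPM and without replicate 2 it is 4.78 CPM.

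**Figure D3:**
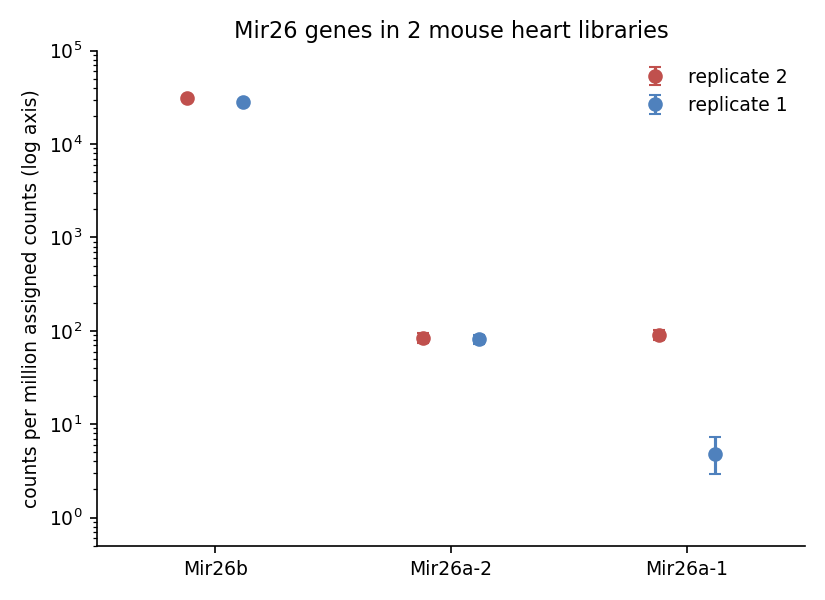
Level of Mir26b, Mir26a-2 and Mir26a-1 in CPM, on a log axis, for replicate 2 (red, left) and replicate 1 (blue, right); bars are exact 95% counting intervals. Mir26b stands near 29902 CPM in both, Mir26a-2 near 82.4 CPM in both, and Mir26a-1 at 91.1 CPM in replicate 2 and 4.78 CPM in replicate 1.

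The 3 genes together held 3.16% of the assigned counts in replicate 2, with an exact 95% interval of 3.14 to 3.18, against 2.84% in replicate 1, with 2.83 to 2.86. Their mean share was 3.003% ± 0.224 (SD, n = 2). Of all reads, those at several loci included, they held 1.02% in replicate 2 and 0.900% in replicate 1. The Mir26a pair alone summed to 503 counts, or 175 CPM, in replicate 2 and to 359 counts, or 85.8 CPM, in replicate 1.

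Per base of precursor, Mir26b had 371-fold the counts of Mir26a-2 in replicate 2 (interval 327 to 423) and 346-fold in replicate 1 (311 to 386). Against Mir26a-1 it had 366-fold in replicate 2 (324 to 414) and 6286-fold in replicate 1 (4070 to 10291). Mir26b was thus first in both libraries. The order of the other members was not the same in both: the ratio of Mir26a-1 to Mir26a-2 per base was 1.01 in replicate 2, with an interval of 0.849 to 1.21 that includes equality, and 0.0551 in replicate 1 (0.0332 to 0.0864). These ratios compare reads unique to each locus. Whether miR-26b exceeded miR-26a in these hearts was not measured, because reads of miR-26a-5p were not assigned.

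Reads were counted almost wholly on a single strand, which was taken from the values to be the strand of the gene. The counts below therefore show that the libraries were stranded, and they do not test which strand it was. The members had 0 counts on the opposite strand in both libraries, and their counts without regard to strand were identical to those on their own strand. Over the 2135 genes that overlap no other microRNA gene, opposite-strand reads were 0.00312% of the counts in replicate 2 and 0.00444% in replicate 1.

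Between the libraries, Mir26a-1 and Mir26b were higher in replicate 2 beyond counting error and Mir26a-2 did not pass the test. In exact binomial tests on the counts, two-sided and scaled by the TMM factors, with Benjamini-Hochberg adjustment over all genes, 63.4% of the 309 genes tested passed, 35.3% as higher and 28.2% as lower in replicate 2, and 18.4% passed with a difference of more than 2-fold in either direction. A pass by 2 of 3 members is near that background, so the members are read by size. Mir26a-1 was 20.0-fold higher in replicate 2, with a log2 ratio of 4.32 (exact 95% interval 3.67 to 5.06, adjusted p = 1.54e-79 by the exact binomial test). This was the largest absolute log2 ratio of the 309 genes tested, where 5.5% passed as more than 2-fold higher in replicate 2. The filter leaves out genes that are low in one library. Among all 514 genes with a count in both libraries Mir26a-1 ranked 6, below Mir302b, Mir302a, Mir302c, Mir9-3 and Mir669e, whose log2 ratios ran from 6.65 down to 4.45 on 2 to 10 counts in replicate 1. Mir26b was 1.17-fold higher, with a log2 ratio of 0.22 (0.21 to 0.23, adjusted p = 3.39e-260 by the exact binomial test), and ranked 226 of 309 by absolute log2 ratio. For Mir26a-2 the log2 ratio was 0.12 (-0.12 to 0.36, adjusted p = 0.423 by the exact binomial test), with rank 263, and the interval spans 0.918-fold to 1.29-fold. Mir26b and Mir26a-2 thus differed by less than the median gene, whose absolute log2 ratio was 0.51. These tests compare the libraries and no conditions.

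**Figure D4:**
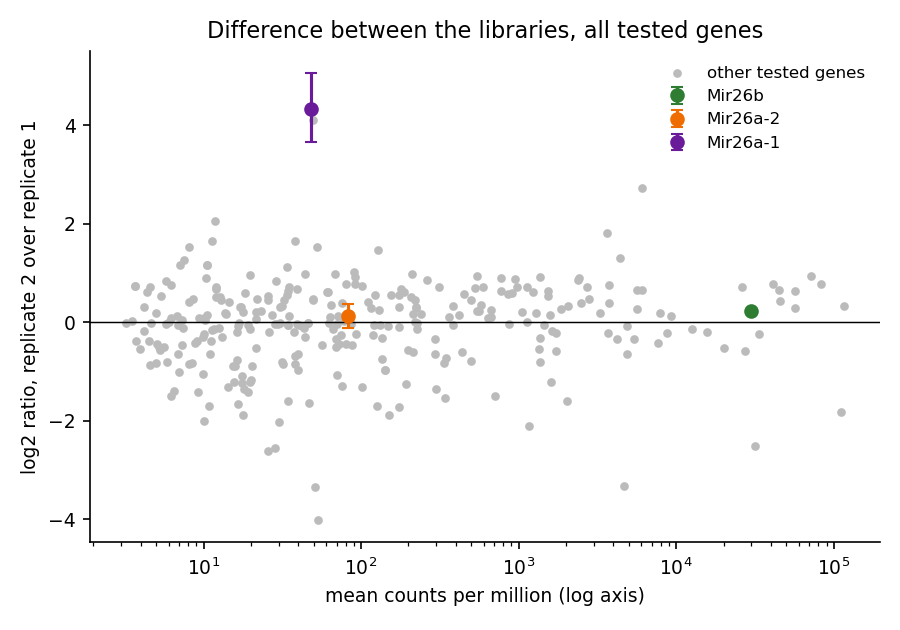
Log2 ratio of replicate 2 over replicate 1, TMM-scaled, against mean CPM on a log axis for the 309 genes tested, with exact 95% counting intervals for the Mir26 genes. Mir26a-1 stands at 4.32, above every other of these 309 genes, while Mir26b at 0.22 and Mir26a-2 at 0.12 lie within the bulk.

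Among the 309 genes tested, those whose log2 ratio lay nearest to that of Mir26a-1 were Mir302d, at 4.10 with 270 counts in replicate 2 and 24 in replicate 1, and Mir140, at 2.73. Mir302d belongs to a cluster known from pluripotent stem cells. Of the 5 genes of that marker list, 4 had counts in both libraries, and Mir367 had 0 in both. The list summed to 425 CPM in replicate 2 and 10.0 CPM in replicate 1. Other marker lists differed between the libraries too. Summed levels were higher in replicate 2 for the leukocyte list, with 8349 CPM against 5998 in replicate 1, for smooth muscle, with 56334 against 32911, and for the hepatocyte gene Mir122, with 57.3 against 19.1. They were lower for the cardiomyocyte list, with 4789 CPM against 6544 in replicate 1, for fibroblast, with 3732 against 5305, for erythroid, with 1328 against 1747, for epithelial, with 268 against 352, and for neuronal, with 222 against 337. These lower sums do not hold for every gene. By CPM, higher in replicate 2 were Mir1a-1 and Mir133a-2 (cardiomyocyte), Mir21a (fibroblast) and Mir486 (erythroid). So were Mir203 and Mir141 (epithelial) and Mir9-3 and Mir9-1 (neuronal). Of these, Mir21a, Mir486 and Mir203 passed the test between the libraries, and the others were not tested. Mir1a-1 had 9 counts in both libraries, and Mir133a-2 had 7 in replicate 2 and 8 in replicate 1. Mir141 had 8 and 9 counts in the same order, and Mir9-1 had 3 and 0. The other genes of these lists that had counts were lower in replicate 2 by CPM. Among them, Mir1a-2, Mir199b, Mir200c and Mir429 did not pass, and Mir133a-1, Mir199a-2, Mir200a and Mir205 were not tested. The endothelial sum was lower, with 49984 CPM against 176135 in replicate 1, through Mir126a alone, since Mir221 and Mir222 were higher, with log2 ratios of 0.89 and 0.73. Of the neuronal list, Mir9-2 and the genes Mir124a-3, Mir124a-2 and Mir124a-1 had 0 counts in both libraries. Reads that fitted several loci are in none of these counts or sums. A count of 0 thus does not show that a microRNA was absent. The part of these lists in the Mir26a-1 result was not tested. Nearest to Mir26a-2 by log2 ratio were Mir99b and Mir483, at 0.12 and 0.13, and nearest to Mir26b were Mir467d and Mir450b, both at 0.22. With only 2 libraries such nearness describes the ratio alone.

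By mean level Mir26b stood between Mir22, at 31817 ± 32150 CPM, and Mir29a, at 27521 ± 8755 CPM (SD, n = 2). The next genes out were Mir99a at 33652 ± 4942 CPM and Mirlet7d at 26179 ± 8029 CPM. The per-library values of all 4 overlap the range of Mir26b, so its place among them is not fixed beyond the spread of replicates. Mir26a-2 stood between Mir770, at 83.8 ± 2.93 CPM, and Mir345, at 80.8 ± 19.9 CPM, with Mir302a at 84.9 ± 117 CPM above and Mir1981 at 80.6 ± 27.5 CPM below (SD, n = 2). Mir26a-1 stood between Mir5099, at 49.5 ± 9.58 CPM, and Mir181a-2, at 46.8 ± 35.2 CPM, with Mir708 at 49.6 ± 9.41 CPM above and Mir29b-1 at 46.3 ± 2.08 CPM below (SD, n = 2). The values of these 8 neighbours overlap the range of the member beside them as well.

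Other microRNA genes have copies in the same way, and the Mir26a pair was set beside them. Among the 968 genes matched to RefSeq by symbol, 87 share an identical mature arm with at least 1 other gene, in 39 groups of which 32 are pairs. Of the 87 genes, 44.8% reached 1 CPM in both libraries, with a median of 46.3 CPM, against 31.6% of the 881 genes that share no arm, with a median of 30.6 CPM. Of those tested, 22 of 36 genes with a shared arm and 141 of 227 without one differed between the libraries. In the Mir26a pair 1 of 2 arms is shared on each precursor, as in the 8 pairs with more counts.

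The share of a pair's counts that fell to its first-named gene was compared between the libraries for the 17 pairs with at least 20 counts in each library, a minimum chosen after the counts were seen. For the Mir26a pair, Mir26a-1 took 52.1% of 503 counts in replicate 2 (interval 47.6 to 56.5) and 5.57% of 359 in replicate 1 (3.44 to 8.47). The difference of 46.5 percentage points was the largest of the 17, whose median absolute difference was 7.43 points. Next came Mir24-1, with 56.6% of the Mir24 pair's counts in replicate 2 and 27.0% in replicate 1. The intervals, 52.9 to 60.3 and 24.8 to 29.3, exclude 50%, so this pair's leading gene changed beyond counting error. Mir181a-1 followed, with 75.1% and 53.7%. The first-named gene also stood on opposite sides of 50% in the Mir29b pair, with 62.9% in replicate 2 and 48.9% in replicate 1, and in the Mir194 pair, with 50.8% and 41.9%. In these 2 pairs no switch is set beyond counting error. The interval includes 50% for Mir29b-1 in replicate 1 (44.0 to 53.9) and for Mir194-1 in replicate 2 (37.5 to 64.1). For the Mir26a pair the interval in replicate 2 includes 50%, so no leading gene is set there.

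The remaining pairs with more counts than Mir26a kept their leading gene. Mir16-1 held 68.7% in replicate 2 and 80.2% in replicate 1. Mir30c-1 held 27.6% and 30.2%, and Mirlet7f-1 4.16% and 2.72%. Mir128-1 held 92.9% and 91.9%, Mir92-1 94.3% and 94.4%, and Mir181b-1 1.10% and 1.77%. Of other copies on the heart lists, Mir1a-1 had 9 and 9 counts beside 194 and 304 at Mir1a-2, Mir133a-1 had 3 and 6 beside 7 and 8 at Mir133a-2, each in replicate 2 and replicate 1, and Mir199a-1 had 0 in both. The Mir1a and Mir133a copies were not formed as pairs, because not all of their symbols were matched to RefSeq, so the ranking of pairs leaves them out. The shares given describe reads that could be told apart, not the output of the loci.

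**Figure D5:**
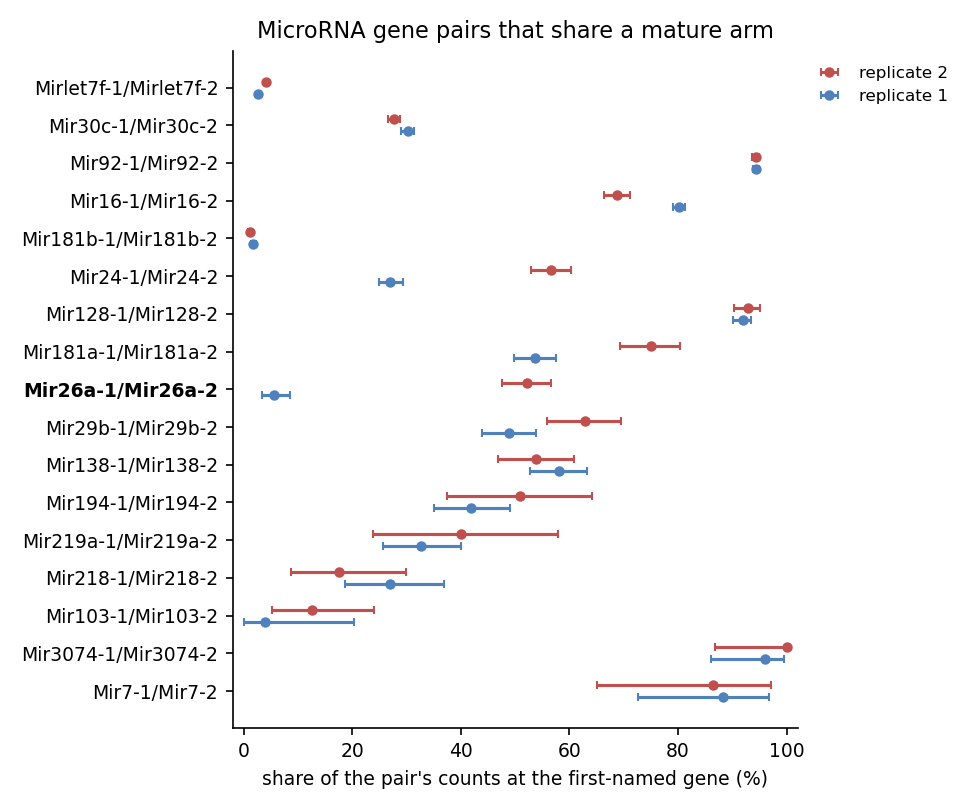
Share of a pair's counts at the first-named gene, in percent, for 17 pairs of microRNA genes with a shared mature arm, in replicate 2 (red, above) and replicate 1 (blue, below), with exact 95% counting intervals. The Mir26a pair (bold) stands at 52.1% in replicate 2 and 5.57% in replicate 1, the widest gap of the 17.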

How the data were processed

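The authors deposited 1 table of raw counts for each library, a row for every microRNA gene, with columns regardless of strand, on the strand of the gene (used here) and on the opposite strand, the meaning of the columns being read from the values. Per the deposited readmes the build is mm10 and the annotation release M21. The aligner is not given in the sources used here. Their first 4 rows (unmapped, several loci, outside genes, ambiguous) stayed out of all totals. Of 8930289 reads in replicate 2 they took 17.5%, 43.2%, 7.11% and 0%, and of 13233055 in replicate 1 19.0%, 42.4%, 6.94% and 0%. Symbols and coordinates came from release M21, sequences from RefSeq. CPM was computed over assigned counts.

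The exact binomial test used TMM scaling and filterByExpr (minimum count 10, threshold 0.05) from edgeR 4.0.16 in R 4.3.3. With 1 library on each side edgeR's quasi-likelihood test could not be fitted. DESeq2 1.42.0 gave alternative size factors. The binomial step was tested on simulated counts that carried counting error only. It called 180 of 200 genes changed 2-fold and 4 of 109 unchanged genes. The simulation held no further spread between libraries, so it does not show how the test behaves with the spread of these data. Python 3.11.15, scipy 1.17.1 and RNAfold 2.7.2 were used. The members, lists and tests were chosen with earlier results of these data known. Named genes were the members, those next to them in level (2 on each side) or log2 ratio (2 each), those with a shared seed, and the 8 leading pairs, plus heart pairs.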

Additional observations from a re-analysis of the deposited data

How the results depend on the processing

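The direction and the side of the 0.05 threshold of the differences of Mir26a-1, Mir26a-2 and Mir26b were the same with DESeq2 size factors, plain totals, no filter beyond 1 count and counts without strand. The log2 ratio lay between 4.25 and 4.32 for Mir26a-1, 0.05 and 0.12 for Mir26a-2, and 0.15 and 0.22 for Mir26b, and 195 of 309, 195 of 309, 214 of 709 and 174 of 288 genes differed under these settings, in that order, instead of 196 of 309. Without the filter the share of genes that differed was thus 30.2% instead of 63.4%, and 5 genes with a count in both libraries had a larger ratio than Mir26a-1. Levels moved with the denominator: without strand, where fewer reads were assigned, Mir26b had a mean of 40028 CPM, Mir26a-2 111 CPM, Mir26a-1 60.2 CPM and the family 4.02%, and over all reads they had 9552, 26.3 and 15.4 per 1000000 and 0.959%. The coefficient of variation was 0.209 with DESeq2's gene-wise dispersion, and the cause was not tested. A shared run of 20 bases between any counted precursors, a wider definition than an identical arm among matched genes, gave 1133 genes instead of 87. Counts of windows found at 1 precursor were 65 in Mir26a-1 and 59 in Mir26a-2 at 18, 20, 22 and 24 bases, and 62 to 68 in Mir26b. Leaving out a replicate leaves no difference between libraries to test. No paired analysis was possible because the design holds 1 group. The 20 counts of Mir26a-1 in replicate 1 limit the precision of its ratio.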
